A study of Caenorhabditis elegans with 8 samples.

Results

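Mixed-stage embryos were compared with aging adults of the nematode Caenorhabditis elegans across every gene that the array could name. The 3 arrays titled as embryos from a bleach and sodium hydroxide preparation and the 2 arrays titled as old adults were taken, which were 5 of the 8 arrays of the study, and 17118 of 17118 genes entered the comparison. All pools were of strain JK1107, which carries the temperature-sensitive allele glp-1(q224). The embryos were washed from adults raised at 15°C, covered various stages, and came in pools of about 5000 eggs per the labels. The aging adults hatched from eggs of parents raised at 15°C, were raised from the L1 larva at 25°C until 6 days after the L4 stage, and came in pools of 3000 to 5000 per the labels, though the study's methods give smaller pools for all groups. The remaining 3 arrays were of young adults at day 1 raised in the same way. They entered the fit to estimate the spread, and they were part of the quantile normalization, which took all 8 arrays together. Their values are given where a gene's level in them helps to place the others. The study's methods give 2 aging pools because little RNA was recovered, and nothing says that the pools came from separate cultures, so the p-values measure only the spread between pools, which may be technical.

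The receptor GLP-1 belongs to the Notch family and keeps the stem cells of the germ line dividing, so that mutant adults raised at the restrictive temperature make almost no germ cells. An early embryo runs on RNA that its mother placed in the oocyte, divides fast with little growth, and then switches on its own genes as the tissues form. An adult of this mutant is a body of cells that no longer divide, in which the intestine makes yolk, stores fat, digests bacteria and detoxifies. Stage, culture temperature and the presence of a germ line differed together between the groups and cannot be told apart here. In whole animals, fewer cells of a type and less RNA per cell cannot be told apart either.

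Many genes of DNA replication, mitosis, chromatin, splicing and the nuclear pore were higher in embryos, together with maternal RNA-binding proteins, germ granule components and embryonic transcription factors. Between 49.1% and 85% of the measured members of each of these 8 lists passed the test as higher in embryos under every scaling of the arrays, against 16.9% of all genes. Many genes of the yolk, of digestion, of fatty acid metabolism, of detoxification, of neuropeptides and of the transthyretin-related family were lower in embryos, at 41.1% to 100% of the measured members of each list, against 14.4% of all genes. For cytosolic ribosomal proteins, the respiratory chain, the proteasome and several other groups the direction depended on how the arrays were scaled, and no direction can be given for most of their members.

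The scaling had to be settled first because the arrays did not share a common level. The median over 22548 probe sets was 56.2 to 64.2 on embryo arrays and 32.4 to 36.9 on aging adult arrays, in units of the deposited intensity, which is linear and background-subtracted. The array means were closer, at 293 to 343 in embryos and 281 to 313 in aging adults. More probe sets stood above background in embryos. An array's noise level was taken as the value under which 95% of its negative readings fell in size, and 58.7% to 60.8% of the probe sets of an embryo array exceeded it, against 51.1% to 51.3% on an aging adult array. This level was 24.4 to 27.7 in embryos and 29.5 to 33.8 in aging adults. The rank correlation of the arrays (Spearman, over probe sets, which are not replicates) was 0.972 to 0.976 among embryos, 0.964 between the aging adult arrays and 0.648 to 0.69 between the groups. Among the young adult arrays, which also enter the estimate of spread, it was lower, at 0.917 to 0.939.

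Each gene was therefore tested under 3 scalings: division of each array by its median, quantile normalization, and no rescaling. The median log2 difference over all genes, embryos minus aging adults, was -0.45 after median scaling, 0 after quantile normalization and 0.37 without rescaling. A difference counted as called where limma's adjusted p, by the Benjamini-Hochberg method over 17118 genes, was under 0.05. After median scaling 45% of genes were called, and 3054 genes, or 17.8%, were higher in embryos and 4642, or 27.1%, were lower. After quantile normalization 41.5% were called, 3467 (20.3%) higher and 3641 (21.3%) lower, and without rescaling 41% were called, 4493 (26.2%) higher and 2518 (14.7%) lower. Genes higher in embryos thus made up 39.7%, 48.8% and 64.1% of the calls under the 3 scalings.

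**Figure D1:**
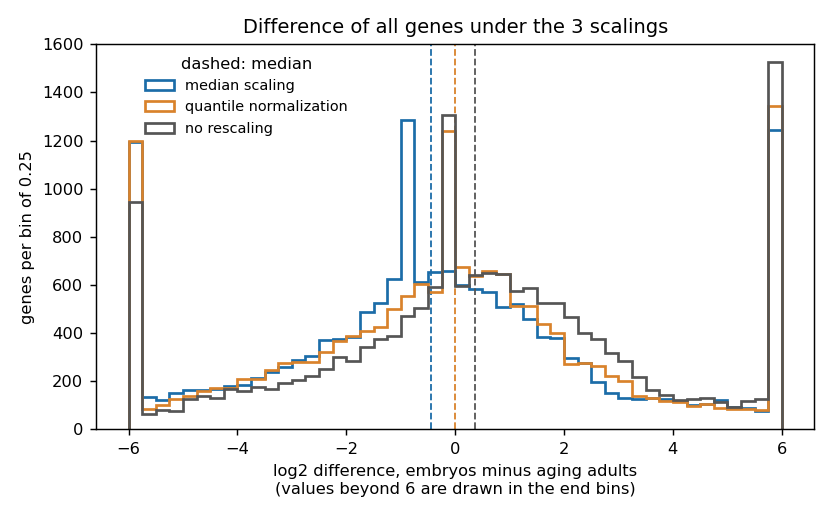
Distribution of the log2 difference, embryos minus aging adults, over 17118 genes under the 3 scalings, in genes per bin of 0.25. The dashed medians lie at -0.45 after median scaling, 0 after quantile normalization and 0.37 without rescaling, genes beyond 6 in size are drawn in the end bins, and the spikes near the middle hold genes at the floor in both groups.

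A total of 5368 genes, or 31.4%, were called the same way under all 3 scalings, and a difference is described as having held where this was so. Of these, 2896 (16.9% of all genes) were higher in embryos and 2472 (14.4%) were lower. Most of the genes higher in embryos after median scaling held, at 94.8%, whereas 53.3% of those lower did. Without rescaling the shares were 64.5% of the genes higher and 98.2% of those lower in embryos. A further 1701 genes were called the same way under 2 of the scalings, 2253 under 1 only, and 28 were called in opposite directions. After median scaling the values of the 2 groups did not overlap for any of the 5368 genes. They also did not overlap for 74.2% of all genes, 29.8% with embryos higher and 44.4% with embryos lower.

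Of the genes that held as higher in embryos, 2663 exceeded the noise level on every embryo array, and for 1182 of these no aging adult array did so. Of those that held as lower, 2218 exceeded it on every aging adult array and 664 of these on no embryo array. Neither group exceeded it on any array for 151 genes that held as higher and 171 that held as lower, and these genes are included in the counts and shares of genes that held, here and in the lists, but none of them is named. Where no array of the lower group exceeded the noise level, the fold is a lower bound, taken against that group's mean with each array raised to its noise level, and is written as at least. The adjusted p beside such a fold comes from the fit without this raising. It tests the fitted difference, which is larger, and not the bound. Among genes measured above noise on all 5 arrays, 342 were over 4-fold higher in embryos under every scaling and 678 were over 4-fold lower. Changes of over 16-fold were rarer, with 21 genes higher and 136 lower in embryos.

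**Figure D2:**
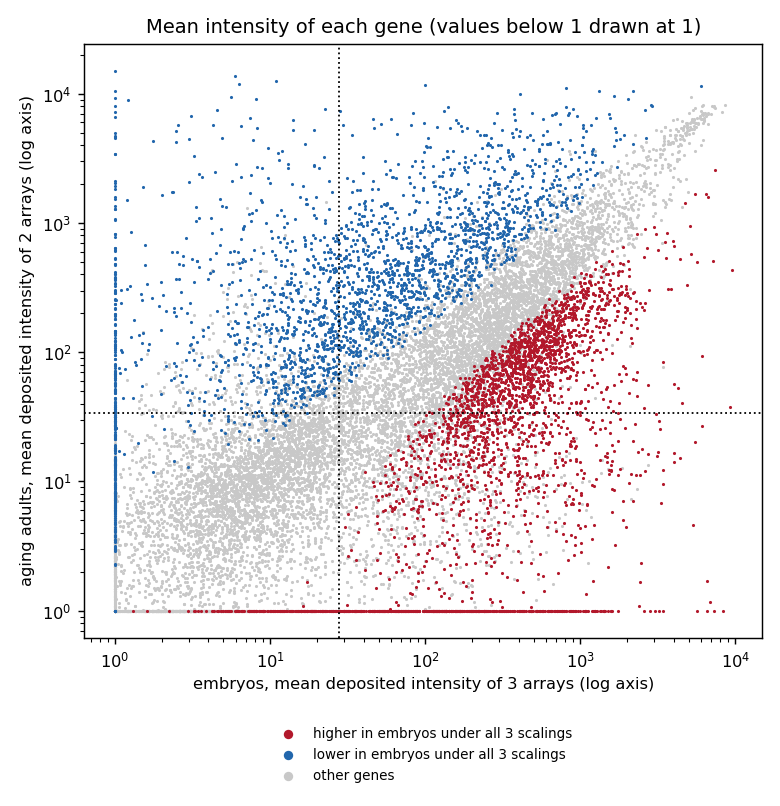
Mean deposited intensity of each gene in embryos (x axis, 3 arrays) and in aging adults (y axis, 2 arrays), both on log axes, with the highest noise level of each group as a dotted line. The 2896 genes that held as higher in embryos lie to the lower right and the 2472 that held as lower lie to the upper left, and many of each lie below the noise level of the other group.

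The largest increases among genes measured in both groups began with cut-2, a cuticlin. Its intensity was 3756, 3839 and 5943 on the embryo arrays, against 43.1 and 38 in aging adults. The difference was 61.9-fold after median scaling (log2 5.95 ± 0.31 SE, limma adjusted p 2.91e-05) and 127-fold after quantile normalization. epg-2, an adaptor that sends germ granule proteins to autophagy in the embryo, had 4203, 4840.5 and 3694 in embryos and 54 and 51 in aging adults, and was 45.7-fold higher in embryos (adjusted p 2.00e-05). rnr-2, the small subunit of ribonucleotide reductase that supplies DNA precursors, had 3829.5, 4419.9 and 3767 in embryos, against 58.5 and 54.7 in aging adults. All 3 embryo arrays stood far above both aging adult arrays for each of these genes. cyb-3, a B-type cyclin, was 37-fold higher in embryos (adjusted p 3.42e-05), and the importin alpha gene ima-2 was 24.7-fold higher (adjusted p 0.000125). The remaining 5 of the 10 largest, which were F33E2.5, rml-3, W04A8.4, the translation factor eIF5A gene iff-1 and the cadherin gene cdh-4, were 24.2 to 40.2 times higher in embryos after median scaling.

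Some transcripts were bright in embryos and at background in aging adults. sip-1, a small heat shock protein of oocytes and embryos, had 8587, 8672 and 7653 in embryos and 0.01 and 0.224 in aging adults, where 0.01 is the floor to which lower values were set. It was at least 149-fold higher in embryos after median scaling and at least 324-fold after quantile normalization (adjusted p 0.00019 and 0.000188). cav-1, a caveolin, had 6374, 7059.6 and 6183 in embryos, against 0.01 and 0.311 in aging adults, and was at least 117-fold higher (adjusted p 0.00463). Young adults were also at background for both genes, at 0.01 on every array for sip-1 and at up to 5.38 for cav-1. F41F3.3 and the lectin gene clec-266 were at least 131-fold and at least 117-fold higher in embryos (adjusted p 0.00467 and 0.00219). The collagen gene dpy-14 was at least 256-fold higher after quantile normalization (adjusted p 0.00881, and 0.00902 after median scaling). Under both of these scalings its bound lay between those of cav-1 and F41F3.3, whose folds above are after median scaling. The call on dpy-14 after median scaling ended without aging adult replicate 2.

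The largest decreases in embryos among genes measured in both groups began with mtl-2. This metallothionein gene had 41.9, 55 and 41.4 in embryos, against 5821 and 6847 in aging adults, and was 243-fold lower in embryos after median scaling (log2 -7.93 ± 0.21 SE, adjusted p 3.14e-06). far-2, a fatty acid and retinol binding protein, had 88.7, 74.7 and 135 in embryos and 11682 and 11483 in aging adults, a 212-fold decrease (adjusted p 8.28e-06). fat-5, a desaturase that acts on palmitate, had 62.2, 67.3 and 52.1 in embryos and 7417 and 5264 in aging adults. The lower aging adult array stood far above the highest embryo array for each of these genes. The desaturase gene fat-2 was 103-fold lower in embryos, the cathepsin B-like protease gene cpr-9 was 111-fold lower and the ferritin gene ftn-1 was 131-fold lower (adjusted p 1.63e-05, 1.11e-05 and 0.00026). ftn-1 varied between the aging pools, at 6654 and 3145. ZK105.1, T21H3.1, F45D3.4 and ora-1 completed the 10 largest, at 123 to 204 times lower in embryos.

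Against background in embryos, the yolk protein gene vit-5 had 15159 and 14853 in aging adults and no value above 2.58 in embryos. It was at least 1034-fold lower in embryos after median scaling and at least 588-fold without rescaling (adjusted p 0.000786 and 0.00187). lys-7, a lysozyme that acts against bacteria, had 11.4, 8.27 and 12.8 in embryos, against 12884 and 12376 in aging adults, and was at least 870.5-fold lower (adjusted p 1.42e-06). ule-1, named for expression in the lumen of the uterus, had 0.214, 0.01 and 0.01 in embryos and 10826 and 10198 in aging adults, at least 724-fold lower in embryos (adjusted p 7.79e-05). In young adults ule-1 already stood at 3654, 4455 and 8795. vit-4 and vit-6 were at least 945-fold and at least 825-fold lower in embryos (adjusted p 0.000853 and 0.000228). The genes vit-3, vit-4 and vit-5 are near-identical in sequence, so their probe sets may share signal.

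**Figure D3:**
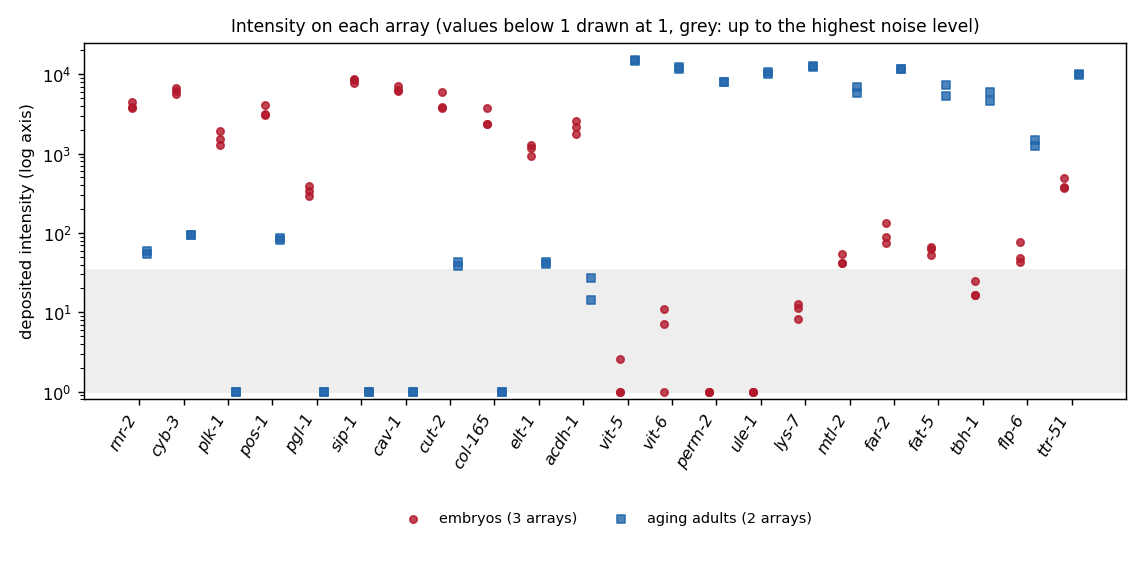
Deposited intensity of 22 genes on each embryo array (circles, left of each gene) and each aging adult array (squares, right), on a log axis, with values below 1 drawn at 1 and the range up to the highest noise level in grey. The first 11 genes are higher on all 3 embryo arrays and the other 11 are higher on both aging adult arrays, with no overlap for any of the 22.

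Labels of stage and tissue were checked against marker genes. Of 6 markers of the early embryo, pie-1, which keeps transcription silent in germ line blastomeres, had 533, 760.4 and 427 in embryos against 25.4 and 18.1 in aging adults, and was at least 10-fold higher (adjusted p 7.98e-05). pos-1, which encodes an RNA-binding protein of the posterior blastomeres, was 22.8-fold higher (adjusted p 0.0273), but the call ended with any 1 of the 5 arrays left out, at adjusted p 0.063 to 0.111, with a replicate block at 0.0613, and from its brightest probe set alone at 0.243 and its specific probe sets at 0.257. end-1, skn-1, end-3 and med-1 did not hold, and end-3 exceeded the noise level on no array. med-1 was called lower in embryos after median scaling, but not after quantile normalization (limma adjusted p 0.0819) or without rescaling (0.403). Among factors that specify tissues, elt-1 of the epidermis was 15.1-fold higher in embryos and lin-26, also of the epidermis, was 2.56-fold higher (adjusted p 0.000173 and 0.00654). pha-4 of the pharynx was 2.38-fold higher (adjusted p 0.0214), a call that ended without embryo replicate 1, embryo replicate 2 or aging adult replicate 1 at adjusted p 0.0618 to 0.135. hlh-1, the MyoD homolog of body wall muscle, had 152, 166 and 97.7 in embryos and 12.5 and 17.1 in aging adults but an adjusted p of 0.559. The spread behind this p-value was estimated with the young adult arrays included.

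Markers of differentiated tissue in the aging adults were mixed. vit-2 and vit-6 of the intestine held as lower in embryos, and so did the gut esterase gene ges-1, at 3.83-fold (adjusted p 0.00273). elt-2, the GATA factor of the intestine, had 234, 245 and 163 in embryos and 524 and 357 in aging adults, and was called lower in embryos after median scaling (adjusted p 0.015) but not without rescaling (0.161) or, after median scaling, without aging adult replicate 1 or 2 (0.0891 and 0.0537). The adult collagen gene col-19 was at or below noise in embryos, at 3.62, 0.01 and 12.9, at 5484, 4843 and 3175 in young adults, and at 249.6 and 97.2 in aging adults. It did not hold, and neither did the collagen markers rol-6 and col-124. The germ line gene pgl-1 had 337, 396 and 291 in embryos and the floor of 0.01 on both aging adult arrays. glh-1, a helicase of the germ granule, was not at background in aging adults, at 44.7 and 67, and did not hold (adjusted p 0.172). gld-1, a repressor of translation in the germ line, had 574, 743 and 539.6 in embryos, against 9.44 and 14.3 in aging adults, and did not hold. The 4 sperm markers gsp-3, gsp-4, msp-3 and spe-9 were at most 31.4 on any of the 5 arrays, and 0 of them held. Of 61 genes of the wider sperm list 1 held as higher and 7 (11.5%) as lower.

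Of the markers of muscle, pharynx and neurons 2 held. myo-3, a myosin heavy chain of body wall muscle, had 738, 773 and 985 in embryos and 167 and 207 in aging adults (adjusted p 0.0364), a call that ended with any 1 of the 5 arrays left out, at adjusted p 0.0672 to 0.191, and with a replicate block, at 0.056. unc-119, a lipid-binding chaperone found throughout the nervous system, had 564, 622 and 413 in embryos and 79.7 and 46.5 in aging adults (adjusted p 0.00726), a call that ended without aging adult replicate 2 at 0.0579. Both were higher on all 3 embryo arrays than on either aging adult array. unc-54, unc-15, myo-1, myo-2, snt-1 and unc-17 did not hold. After median scaling unc-15, snt-1 and unc-17 were called lower in embryos, opposite to the 2 that held. Without rescaling these calls ended, at limma adjusted p 0.122, 0.0671 and 0.4. The call on unc-15 also ended after quantile normalization, at 0.263.

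Gene groups were described by how many of their measured members held in each direction, beside 16.9% higher and 14.4% lower for all genes. Medians are of the log2 difference after median scaling, followed by the median found where signals below the noise level were raised to a floor common to the arrays. Over all genes these medians were -0.45 and 0.

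Cell division genes were high in embryos. Of 40 genes of DNA replication and licensing, 34 (85%) held as higher in embryos and 1 as lower, with medians of 5.19 and 3.06. The summed intensity of the 40 was 32891 to 48814 on the embryo arrays and 1402 to 1481 on the aging adult arrays. gmn-1, the geminin that blocks re-licensing, had 215, 264 and 214 in embryos and 0.01 on both aging adult arrays, at least 4.13-fold higher in embryos (adjusted p 0.000102). ctf-4, which links helicase and polymerase, and pri-1, a primase subunit, were at least 14.3-fold and at least 10.3-fold higher (adjusted p 0.0026 and 0.00399). The exception was rpa-4, a homolog of replication protein A, with 69.1, 73.8 and 79.9 in embryos and 289 and 227 in aging adults, 6.08-fold lower in embryos (adjusted p 0.000314). Of 73 genes of mitosis, the centrosome and the kinetochore, 55 (75.3%) held as higher and 0 as lower, with medians of 4.72 and 3.16. The polo kinase gene plk-1 had 1547, 1933 and 1276 in embryos, against 0.01 on both aging adult arrays, and was at least 28.1-fold higher (adjusted p 7.01e-05). hcp-1, a CENP-F-like kinetochore protein, and hcp-6, a condensin subunit, were at least 19-fold and at least 13.3-fold higher in embryos (adjusted p 0.00105 and 0.000309).

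Histones moved less uniformly, and near-identical copies may share probe sets. Of 35 measured histone and linker histone genes 9 held as higher in embryos and 1 as lower. Under median scaling alone 9 were called higher and 6 lower, and without rescaling 16 higher and 1 lower. The linker histones went both ways. hil-4 had 1101, 1524 and 960.3 in embryos and 0.01 on both aging adult arrays, at least 21.1-fold higher in embryos (adjusted p 7.60e-05), and hil-2 was at least 95.4-fold higher (adjusted p 0.00512). hil-1 had 34.4, 29.6 and 27.1 in embryos against 949 and 575 in aging adults and was 43.1-fold lower in embryos (adjusted p 4.52e-05).

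Chromatin and RNA processing genes were mostly higher in embryos. Of 59 chromatin regulators and dosage compensation genes 45 (76.3%) held as higher and 0 as lower, with medians of 2.09 and 1.87. mes-4, a histone H3 lysine methyltransferase that marks germ line genes, had 453, 619.6 and 416 in embryos and 4.06 and 13.2 in aging adults, at least 8.79-fold higher in embryos (adjusted p 0.00124). set-32, a SET domain gene, was at least 2.85-fold higher (adjusted p 0.000107). Of 60 splicing genes 44 (73.3%) held as higher and 0 as lower, with medians of 1.75 and 1.71. The SR protein gene rsp-6 had 2323, 2686 and 1812 in embryos and 209 and 151 in aging adults, 7.17-fold higher in embryos (adjusted p 0.000492), and all 3 embryo values exceeded both others. Of 47 genes of the nuclear pore, lamina and import 29 (61.7%) held as higher and 0 as lower. The nucleoporin gene npp-22, also called ndc-1, was 13.1-fold higher (adjusted p 0.000175), with 1 of 2 aging adult arrays above noise.

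Maternal and germ line products were next. Of 42 maternal RNA-binding and polarity genes 25 (59.5%) held as higher in embryos and 0 as lower, with medians of 3.47 and 1.81. oma-1, a zinc finger protein of the maturing oocyte, had 615, 739.5 and 550.1 in embryos and 0.01 on both aging adult arrays, and was at least 11.3-fold higher (adjusted p 0.0039). The nanos homolog nos-1 and the PUF protein gene puf-11 were at least 3.63-fold and at least 8.54-fold higher (adjusted p 0.000107 and 0.00637). Of 36 genes of P granules and small RNA pathways 19 (52.8%) held as higher and 0 as lower, with medians of 2 and 1.27. pgl-1, a structural protein of P granules, was at least 6.09-fold higher in embryos (adjusted p 9.71e-05), and the Argonaute gene wago-1 at least 19.2-fold (adjusted p 0.00351).

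The eggshell and yolk uptake list was split. Of 18 measured members 7 held as higher in embryos and 3 as lower. cbd-1, a chitin-binding protein of the outer eggshell, had 449.6, 585 and 403 in embryos and 0.01 on both aging adult arrays, at least 8.5-fold higher in embryos (adjusted p 0.000552). perm-2 and perm-4, which act in the same outer layer, went the other way. perm-2 had 0.36, 0.406 and 0.374 in embryos, 4939, 5087 and 7378 in young adults and 8088 and 7966 in aging adults. It was at least 553-fold lower in embryos than in aging adults (adjusted p 7.39e-08). perm-4 had 5.61, 0.33 and 10.9 in embryos and 9576 and 9362 in aging adults, at least 653-fold lower in embryos (adjusted p 0.000401), but without the probe sets that match several transcripts its adjusted p was 0.101. rme-2, the yolk receptor of the oocyte, had 121, 131 and 118 in embryos and 0.01 in aging adults, at least 2.22-fold higher in embryos (adjusted p 0.0111), a call that ended without either aging adult replicate at adjusted p 0.0552 and 0.0567.

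Zygotic regulators were higher in embryos in part. Of 57 transcription factors and signals of embryonic fate and patterning 28 (49.1%) held as higher and 0 as lower, with medians of 2.41 and 1.28. dsl-2, a ligand of the Notch pathway, had 1053, 1445 and 845 in embryos, sdz-28, named for its dependence on SKN-1 in the zygote, had 1289, 1654 and 1087, and both were at 0.01 on both aging adult arrays. They were at least 19.5-fold and at least 23.8-fold higher in embryos (adjusted p 7.79e-05 and 7.31e-05). hnd-1, a homolog of the Hand factors of mesoderm, exceeded its aging adult level at least 9.55-fold in embryos (adjusted p 0.00478). Of 91 homeobox genes 34 (37.4%) held as higher and 7 (7.69%) as lower. zag-1, a zinc finger homeobox gene of neurons, had 348, 317 and 274 in embryos and 0.01 on both aging adult arrays, at least 5.6-fold higher (adjusted p 9.88e-05). ceh-60, a PBC-class homeobox gene of the adult intestine, had 15, 12.1 and 5.8 in embryos and 188 and 123 in aging adults, and was at least 10.5-fold lower in embryos (adjusted p 0.000304).

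Of 259 nuclear hormone receptors 8 (3.09%) held as higher in embryos, below the share of all genes, and 46 (17.8%) held as lower, close to it. Those higher included sex-1, which reads the number of X chromosomes, and nhr-25, which acts in the epidermis. sex-1 had 1843, 2255 and 1418 in embryos against 52.6 and 66.9 in aging adults, 17.3-fold higher (adjusted p 0.000167). The fold of nhr-25 was 8.48 (adjusted p 9.70e-05), with 1 of 2 aging adult arrays above noise. nhr-106 had 0.01 on all embryo arrays and 212 and 150.2 in aging adults, at least 12.3-fold lower in embryos (adjusted p 3.88e-05). The F-box, MATH, BTB and Skp1-related genes, adaptors for the ubiquitin system, held in both directions, with 108 of 432 (25%) higher and 60 (13.9%) lower. skr-15, a Skp1-related gene, had 1157, 1680.5 and 995 in embryos and 0.01 on both aging adult arrays, at least 22.4-fold higher (adjusted p 0.00429).

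The cuticle was represented by different genes in the 2 groups. Of 147 measured cuticle collagens 49 (33.3%) held as higher in embryos and 15 (10.2%) as lower. col-165 had 2329, 2360.3 and 3776 in embryos and 0.01 on both aging adult arrays, at least 49.4-fold higher in embryos (adjusted p 5.81e-05). dpy-7, a furrow collagen, had 1179, 1277 and 1222 in embryos, 231, 168 and 66.2 in young adults and 0.01 on both aging adult arrays, and was at least 22-fold higher in embryos than in aging adults (adjusted p 1.08e-05). col-143 ran opposite, with 0.01 on every embryo array, 5827, 4265 and 8161 in young adults and 1237 and 908 in aging adults, at least 73-fold lower in embryos than in aging adults (adjusted p 1.15e-06). col-101 and col-184 were at least 40.2-fold and at least 220.1-fold lower (adjusted p 6.25e-06 and 0.00383). All 3 of these collagens were higher on every young adult array than on either aging adult array. Collagens are a large family, and near-identical members may share probe sets. Among the measured genes of moulting, the apical matrix and the hedgehog-related family 56 (33.9%) held as higher and 24 (14.5%) as lower. The cuticlin gene cut-3 had 2573, 3206 and 4434 in embryos and 0.01 on both aging adult arrays, at least 59.7-fold higher in embryos (adjusted p 0.000525), and the hedgehog-related gene wrt-10 was at least 26.5-fold higher (adjusted p 7.31e-05). The astacin protease gene nas-20 was at least 129-fold lower (adjusted p 0.00198).

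All 5 measured yolk protein genes held as lower in embryos. Their summed intensity was 29.2 to 35.2 on the embryo arrays and 52057 to 53451 on the aging adult arrays. vit-2 had no embryo value above 2 and 9502 and 9053 in aging adults. Young adults, at 9620.4, 9660.4 and 9308, were close to the aging adults. It was at least 639-fold lower in embryos (adjusted p 0.000739).

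Digestive genes followed, with 53 of 77 (68.8%) proteases, lysozymes and saposin-like genes held as lower in embryos and 2 as higher, and with medians of -3.43 and -3.33. asp-17, an aspartyl protease, had 0.01 on every embryo array, 94.8, 147 and 581 in young adults and 2029.5 and 2055 in aging adults. It was at least 141-fold lower in embryos than in aging adults (adjusted p 2.01e-05). spp-23, a saposin-like gene, was at least 21.9-fold lower (adjusted p 2.00e-05). The exception among saposin-like genes was spp-7, with 161, 162 and 179.6 in embryos and 0.01 on all adult arrays, at least 3.01-fold higher in embryos (adjusted p 0.000106). Of 220 C-type lectins, many of which respond to pathogens, 48 (21.8%) held as lower and 11 (5%) as higher, and 70 exceeded the noise level on every array of embryos or of aging adults. clec-190 was at least 87.7-fold lower in embryos (adjusted p 0.000106), and clec-88 at least 45.8-fold higher (adjusted p 2.00e-05), with 2316, 3025 and 2368 in embryos and 0.263 and 0.13 in aging adults.

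Many genes for the metabolism of foreign compounds and fat were lower in embryos. Of 209 cytochrome P450, UDP-glucuronosyltransferase, glutathione transferase and short-chain dehydrogenase genes 86 (41.1%) held as lower and 8 (3.83%) as higher. cyp-35B1 had 0.01 on every embryo array and 1655 and 472 in aging adults, at least 60.9-fold lower in embryos (adjusted p 2.30e-05), and dhs-26 was at least 126-fold lower (adjusted p 1.95e-05). The aging pools differed from each other for both genes, with 3132 and 1065 for dhs-26, yet each stood above all embryo arrays. Of 108 genes of fatty acid activation, oxidation, desaturation and binding 52 (48.1%) held as lower and 10 (9.26%) as higher. far-6 had 3.28, 8.71 and 2.69 in embryos and 4251 and 4802 in aging adults, at least 311-fold lower in embryos (adjusted p 1.87e-05).

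acdh-1, an acyl-CoA dehydrogenase of propionate breakdown, was an exception among the lipid genes. It had 2183, 1756 and 2580.5 in embryos and 26.8 and 14.5 in aging adults, at least 38.6-fold higher in embryos (adjusted p 0.000264). Young adults, at 6427, 1964 and 2039.5, overlapped the embryos or exceeded them, and the aging adults stood apart from both. cpt-6, a carnitine palmitoyltransferase gene, was 14.6-fold higher in embryos, with 535, 949 and 654 in embryos and 21.7 and 33.4 in aging adults (adjusted p 0.000184). Of these 2 aging adult arrays 1 was above noise.

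Neuropeptide genes were mostly lower in embryos, whereas few genes of synaptic transmission held in either direction. Of 85 neuropeptide genes 56 (65.9%) held as lower in embryos and 1 as higher, with medians of -3.35 and -2.64. flp-6, an FMRFamide-like peptide gene, had 48.1, 42.8 and 77.1 in embryos and 1491 and 1249.7 in aging adults, 44.4-fold lower in embryos (adjusted p 8.07e-05). The 1 exception, nlp-24, had 285, 312 and 399 in embryos, 74, 15.6 and 115 in young adults and 0.01 on both aging adult arrays, at least 5.91-fold higher in embryos than in aging adults (adjusted p 5.25e-05). Of 63 genes of synaptic transmission 4 (6.35%) held as higher and 7 (11.1%) as lower, both below the shares of all genes. egl-3 and egl-21, which cut and trim peptide precursors, were 15.2-fold and 11-fold lower in embryos (adjusted p 0.000126 and 0.000107). tbh-1, which makes octopamine and is also found in the gonad sheath, had 16.7, 16.5 and 24.5 in embryos, against 5913 and 4548 in aging adults, with 1 of 3 embryo arrays above noise (adjusted p 1.42e-06). The acetylcholine receptor genes lev-8 and unc-29 were 3.79-fold and 2.13-fold higher in embryos (adjusted p 0.000357 and 0.00598), with lev-8 above noise on 1 of 2 aging adult arrays.

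Of 56 muscle genes 10 (17.9%) held as higher in embryos and 10 as lower, shares close to those of all genes. The latter take in more dim genes, as 10614 of 17118 genes were above noise on every array of embryos or of aging adults, against 54 of the 56. After median scaling 25 muscle genes were called lower, after quantile normalization 12 and without rescaling 10, against 10, 14 and 18 called higher. Members of the troponin families took opposite directions. The troponin I gene tni-1 had 1974, 2085 and 2386 in embryos and 89.7 and 147 in aging adults, 10.6-fold higher in embryos (adjusted p 0.00308). unc-27, another troponin I gene, had 701, 698 and 879 in embryos and 4543 and 2976 in aging adults, 8.57-fold lower (adjusted p 4.90e-05). Likewise the troponin T gene tnt-3 was 5.04-fold higher and tnt-2 was 9.71-fold lower in embryos (adjusted p 0.00434 and 0.000152). The myosin heavy chain gene unc-54 had 1338, 1433 and 1797 in embryos and 2575 and 1636 in aging adults. These deposited values overlapped, but after division by the array medians they did not. It was not called after median scaling (adjusted p 0.085).

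Stress and longevity genes held in both directions. Of 38 heat shock and chaperonin genes 7 (18.4%) held as higher in embryos, close to the share of all genes. A further 2 (5.26%) held as lower, below that share. Here too the shares of all genes take in more dim genes, as 36 of the 38 were above noise on every array of embryos or of aging adults. hsp-12.1, a small heat shock protein gene, had 905, 854 and 816 in embryos and 25.5 and 22.9 in aging adults, at least 15.4-fold higher in embryos (adjusted p 8.33e-05). hsp-43, of the same family, had 159.9, 171 and 207 in embryos and 2646 and 3886 in aging adults, 31.7-fold lower (adjusted p 8.97e-05). Of 30 antioxidant genes 3 held as higher and 7 (23.3%) as lower. The mitochondrial superoxide dismutase gene sod-2 was 2.52-fold higher in embryos and the extracellular one, sod-4, was 8.84-fold lower (adjusted p 0.00376 and 0.000225). The peroxisomal catalase gene ctl-2 was 5.42-fold lower in embryos (adjusted p 0.000111). Of 55 genes of insulin signalling and its outputs 25 (45.5%) held as lower and 4 (7.27%) as higher. dod-23, named as an output of the insulin pathway factor DAF-16, had 28.3, 11.3 and 28.6 in embryos, against 8273 and 6982 in aging adults (adjusted p 2.36e-05). The insulin-like gene ins-34 was at least 13.6-fold higher in embryos (adjusted p 0.00357).

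The transthyretin-related genes, most of which encode secreted proteins, were low in embryos, with 30 of 40 (75%) held as lower and 1 as higher. ttr-51 had 375, 365 and 492 in embryos and 10098 and 9676 in aging adults, 42.8-fold lower in embryos (adjusted p 2.00e-05). ttr-50 was the exception, with 5766, 6402 and 4676 in embryos and no aging adult value above 0.647. It was at least 100.1-fold higher in embryos (adjusted p 0.0103), a call that ended without aging adult replicate 1 (adjusted p 0.0715).

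Repair of UVC damage was the subject of the study, and of 26 measured homologs of nucleotide excision repair genes that it named, 11 (42.3%) held as higher in embryos and 0 as lower, with medians of 0.73 and 0.42. The DNA ligase gene lig-1, which also seals the nicks of replication, had 822, 1085 and 711 in embryos and 21.6 and 15.9 in aging adults, at least 15.4-fold higher in embryos (adjusted p 0.0048). cyh-1, the cyclin H of transcription factor TFIIH, had 148, 119.5 and 107 in embryos and 0.01 on both aging adult arrays, at least 2.23-fold higher (adjusted p 0.000111).

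**Figure D4:**
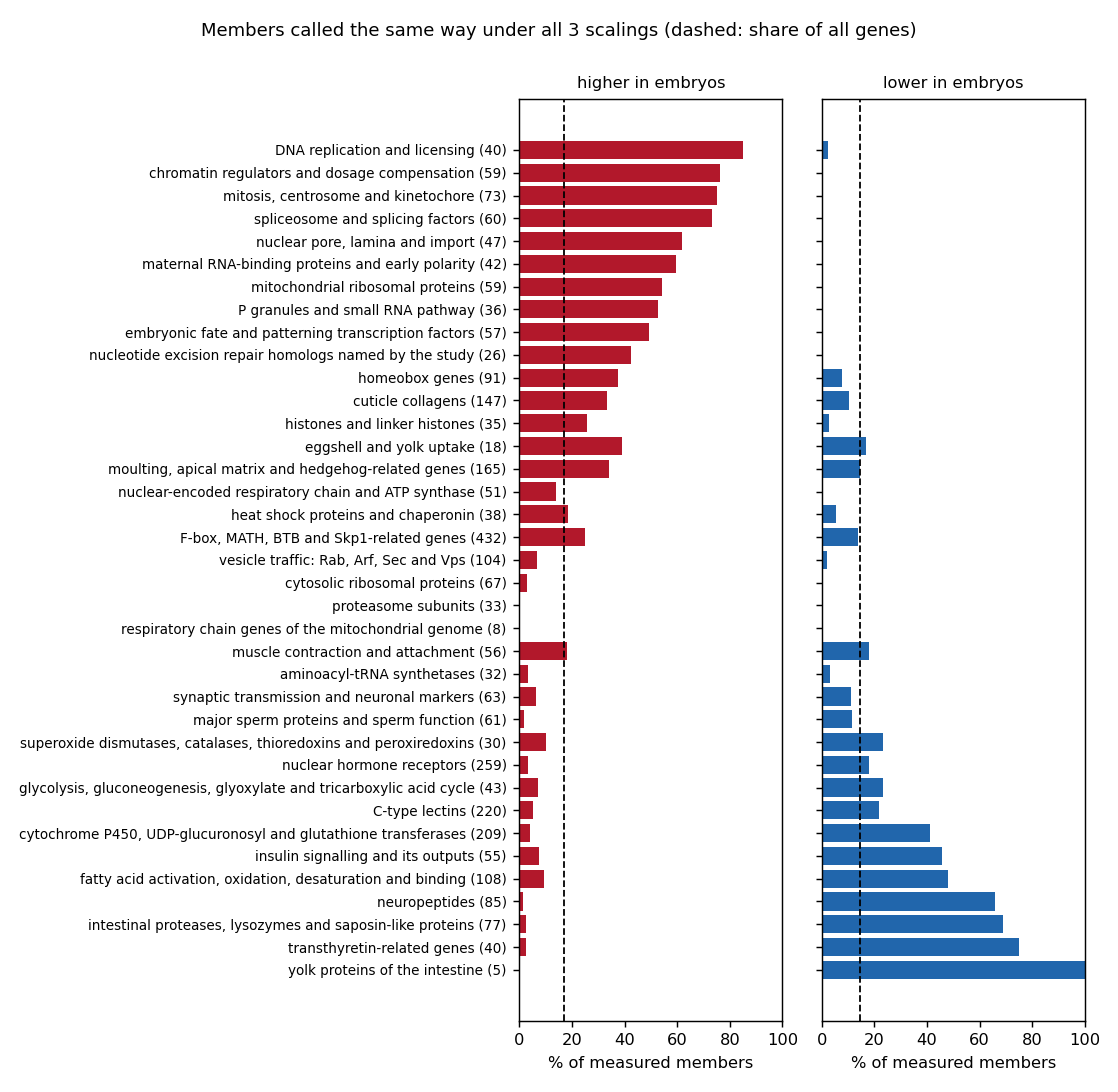
Share of the measured members of 37 gene lists (number measured in brackets) that held as higher in embryos (left) or as lower in embryos (right) under all 3 scalings, with the shares of all genes, 16.9% and 14.4%, dashed. Replication, at 85%, has the highest share on the left, and the yolk proteins, at 100%, the highest on the right.

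The cytosolic ribosomal proteins gave the plainest case of a direction set by the scaling. After median scaling 62 of 67 measured genes were called lower in embryos and 2 higher, after quantile normalization 0 lower and 12 higher, and without rescaling 0 lower and 2 higher. Their median log2 difference was -0.94, 0.2 and -0.12 under the 3 scalings. The deposited intensities themselves were close, with a summed value of 306870 to 334160 on the embryo arrays and 318770 to 375070 on the aging adult arrays. rps-3 had 6292, 6053 and 6019 in embryos and 6815 and 5849.5 in aging adults, and its adjusted p was 0.0069 after median scaling as lower and 0.0438 after quantile normalization as higher in embryos. rpl-3 had 7017, 7441 and 7544 in embryos, against 8280.1 and 7223 in aging adults, with adjusted p 0.0052 after median scaling as lower and 0.118 after quantile normalization. The deposited embryo values, before any scaling, overlapped those of aging adults for both genes. They were chosen as examples after their values were seen, and no direction is given for them. Of the 28 genes called in opposite directions 26 were lower in embryos after median scaling and higher after quantile normalization, and 10 were ribosomal protein genes.

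The 2 ribosomal genes that held were rpl-11.1 and rpl-41.1, each 1 of a set of paralogs. rpl-11.1 had 1139, 1578 and 1147 in embryos and 198 and 236 in aging adults, 3.35-fold higher in embryos after median scaling (adjusted p 0.000957), while its paralog rpl-11.2 had 3911, 3846 and 3576 in embryos and 5239 and 4383 in aging adults and did not hold. rpl-41.1 had 2861, 3474 and 2604 in embryos and 1067 and 808 in aging adults, 1.81-fold higher in embryos (adjusted p 0.0461). The call on rpl-41.1 ended under 6 of the 8 left-out arrays, at adjusted p up to 0.2, and with a replicate block, at 0.108.

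Mitochondrial translation did not share this pattern. Of 59 mitochondrial ribosomal protein genes 32 (54.2%) held as higher in embryos and 0 as lower, with medians of 1.15 and 1.12. mrpl-40 had 641, 598 and 453 in embryos and 65.8 and 46.2 in aging adults, 5.75-fold higher in embryos (adjusted p 0.00128). Of 51 nuclear genes of the respiratory chain and ATP synthase, 7 were called higher and 9 lower after median scaling, 31 higher and 0 lower after quantile normalization, and 21 higher and 0 lower without rescaling. The 7 that held were all higher in embryos. They included ucr-2.3, of the cytochrome bc1 complex, with 526, 741 and 459 in embryos and 4.17 and 11 in aging adults, at least 10.1-fold higher (adjusted p 0.000259), and cox-15, at least 5.18-fold higher (adjusted p 0.000127). Of the 8 measured genes of the mitochondrial genome 7 were called lower in embryos after median scaling, 1 higher after quantile normalization and 0 without rescaling. 0 of the 8 held.

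Other groups whose counts turned on the scaling were the proteasome, of which 0 of 33 held, and vesicle traffic. Proteasome subunits were called 0 higher and 2 lower after median scaling, 12 higher and 0 lower after quantile normalization, and 11 higher and 0 lower without rescaling. Of the measured genes of vesicle traffic 7 (6.73%) held as higher in embryos and 2 (1.92%) as lower, though 24 were called lower after median scaling and 30 higher without rescaling. The 2 were rme-1, which recycles endocytic cargo, at 4.71-fold lower in embryos, and rab-1, of traffic from the endoplasmic reticulum, at 2.98-fold (adjusted p 0.000326 and 0.00102). Of 43 genes of glycolysis, gluconeogenesis, the glyoxylate cycle and the tricarboxylic acid cycle 3 held as higher and 10 (23.3%) as lower, and those called lower were 26 after median scaling, 14 after quantile normalization and 12 without rescaling, against 3, 6 and 6 called higher. pyk-2, a pyruvate kinase, had 148, 194 and 203 in embryos and 1028 and 724 in aging adults, 8.44-fold lower in embryos (adjusted p 4.93e-05). Of 32 aminoacyl-tRNA synthetases 1 held in each direction, dars-2 of the mitochondrion as 2.34-fold higher in embryos and iars-1 as 2.59-fold lower (adjusted p 0.00288 and 0.00188).

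**Figure D5:**
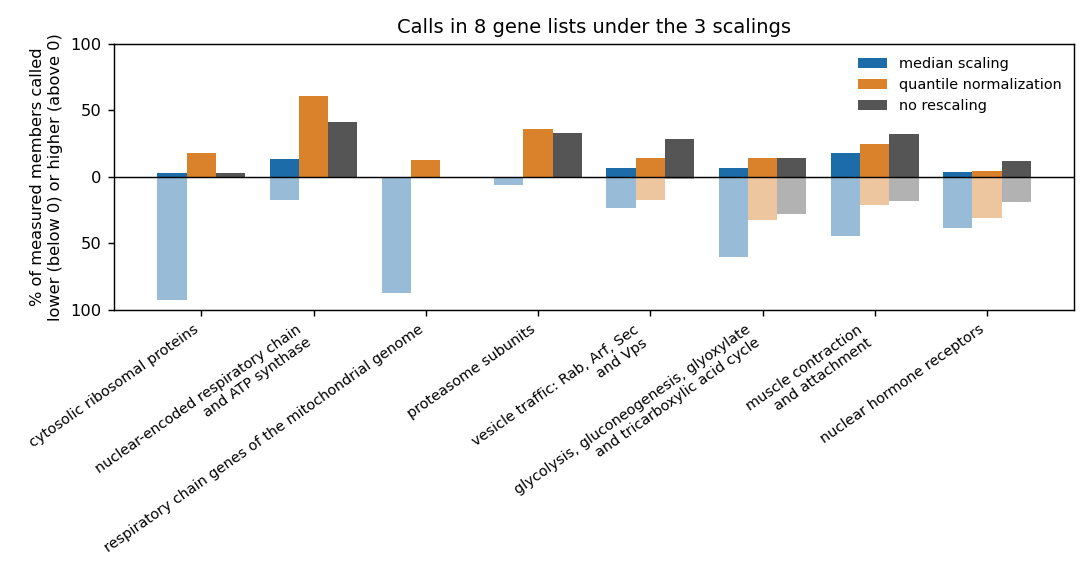
Share of the measured members of 8 gene lists called higher in embryos (bars above 0) or lower in embryos (paler bars below 0) under median scaling, quantile normalization and no rescaling. Of 67 cytosolic ribosomal proteins 62 are called lower after median scaling and 0 after the others, and of 51 respiratory chain genes 31 are called higher after quantile normalization.

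The genes that held were spread unevenly over the chromosomes, as placed by the RefSeq annotation of assembly WBcel235. On chromosome I 22.2% of 2469 genes held as higher in embryos and 8.71% as lower. On chromosome III the shares of 2253 genes were 22.1% higher and 12.9% lower, on II 19.5% and 12.5% of 3017 in the same order, and on IV 17.6% and 15.5% of 2666. On chromosome V 10.3% of 4317 genes held as higher and 16.4% as lower, and on X 14.9% and 19.9% of 2355. Among the 2051 genes of chromosome V that were above noise on every array of embryos or of aging adults 19.2% held as higher and 29.6% as lower, and of the 1725 such genes of chromosome I 29.4% held as higher and 11.1% as lower. Genes of 1 chromosome are not independent, and these shares are a description.

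Young adults, which are of the same mutant and temperature as the aging adults, lay mostly on the aging adult side. Among the genes above noise on every array of their higher group, 88.7% of those that held as higher in embryos had a young adult mean nearer to that of aging adults than to that of embryos, and 94.5% of those that held as lower did. Over all genes the share was 74.6%. The genes were chosen for a wide gap between embryos and aging adults, so these shares are no test of where young adults lie. Young adults lay beyond the embryo mean for 75 of 2663 genes that held as higher and 9 of 2218 that held as lower, acdh-1 among the first.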

How the data were processed

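RNA from pools of glp-1(q224) animals was hybridized to Affymetrix C. elegans Genome GeneChips, with 1 array per pool. The deposited intensity values are linear signals from which the authors' scanner software had subtracted background, with negative values kept and no common scaling of the medians. The authors loaded them into Rosetta Resolver, whose fold changes and p-values were deposited in a separate table and not used here.

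Of 22548 probe sets, 20766 had 1 gene in the platform annotation, 887 had several and 895 had none. As in the study's methods, a floor of 0.01 was applied to the probe set values, which were then divided by the median of their array. The log2 values of probe sets with 1 gene were then reduced to the median per gene. This gave 17118 genes, of which 17085 matched RefSeq. The intensity given for a gene was formed in the same way without the division. A probe set at the floor can therefore pull it far down. log2 values of all 8 arrays were fitted with limma 3.58.1 in R 4.3.3 (lmFit, then eBayes with a trend), and p-values were adjusted by Benjamini-Hochberg over all genes, with calls under 0.05. Quantile normalization and no rescaling were run in the same way. The quantile normalization took all 8 arrays, so the values of embryos and aging adults after it also depend on the young adult arrays. A fold is 2 to the power of the fitted difference, unless it is given as at least. The adjusted p beside a fold given as at least still tests the fitted difference, which can rest on values at the floor. The bound itself was not tested. The script was checked on simulated data with known changes. The simulation had normal noise and no floor, and placed changes only in genes with a mean above the array median. It therefore did not test calls on genes at the floor or the choice of scaling.

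The genes and lists were chosen with earlier results of these data known. Named genes are the 10 largest changes each way among genes that held and were above noise on all 5 arrays, the 5 largest each way with the lower group at background, up to 3 members of each list each way, and the cell type markers. Genes named by size of change or by list also had to have no overlap between the 2 groups after median scaling, so their separation is no further support. RefSeq of assembly WBcel235 gave names and chromosomes only. No sequence was used, and a planned description of promoter motifs was not run. The number of arrays limits the precision.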

Additional observations from a re-analysis of the deposited data

How the results depend on the processing

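The fit of 17118 genes gave 3054 genes higher and 4642 lower in embryos after median scaling, and the count of lower genes was the one that depended most on the settings. It was 2518 without rescaling, and 2991 to 4943 with each array left out, the aging adult arrays giving 3035 (replicate 1) and 2991 (replicate 2). The count of higher genes ranged over 2272 to 3493 with each array left out. With the 2 groups fitted alone, so that young adults did not enter the spread, 4062 genes were higher and 5176 lower after median scaling. Of the genes called under all 3 scalings, with each of the 5 arrays left out, 2051 to 2506 were higher in embryos and 1626 to 2277 were lower, the lowest without aging adult replicate 1. The aging adult group then rests on 1 array, which is assumed to vary like the other groups. The median difference over all genes was -0.45 after median scaling, 0 after quantile normalization, 0.37 without rescaling, -0.39 with a floor at the noise level of each array, 0 with a floor common to the arrays, -0.14 with 0.1 added before the log and -0.033 after a filter at the noise level. No other setting moved either count by over 1.5 times. The common floor, and the filter and left-out arrays for genes called under all 3 scalings, were added after the data were seen.

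Deviations of same-numbered embryo and aging adult arrays from their group means correlated at -0.0073 (number 1) and 0.0024 (number 2). With 2 aging adult arrays the deviations of 1 mirror those of the other, so these are not separate checks. Young adults were not checked, and these values cannot show that the pools were unpaired. With the number as a replicate block 2661 genes were higher and 3734 lower in embryos.

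Of 208 named genes 194 were called after median scaling and 160 kept the call with every array left out. The floor at the noise level turned the direction of 4 dim genes, for which no level is reported here, with log2 differences of -0.22 for mrps-26, -0.62 for cyp-34A1, -0.20 for lipl-6 and -0.62 for msp-33. Of 74 counts of list members called in a direction, 22 moved by over 1.5 times after quantile normalization, 39 without rescaling, and 3 to 10 with another floor, with 0.1 added or after the filter. With only 2 aging adult pools, and with 5593 genes above noise on none of the 5 arrays, small differences and dim genes were not resolved.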

Other observations

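Genes sharing a name stem were counted where 10 or more were measured and they were in none of the lists above. The stems given were chosen after their values were seen, and the shares of all genes that held, 16.9% higher and 14.4% lower in embryos, stand beside them. Of 10 subunits of RNA polymerase II (rpb) 8 held as higher in embryos and 0 as lower. rpb-10 had 612, 858 and 487 in embryos and 60.9 and 54.4 in aging adults, 6.27-fold higher in embryos (limma adjusted p 0.014). General transcription shared this direction, with 8 of 15 TBP-associated factors (taf) and 8 of 16 Mediator subunits (mdt) held as higher and 0 of either as lower. Of 25 DnaJ co-chaperones (dnj) 11 held as higher and 0 as lower. Their folds were modest, dnj-5 having 1035, 1292 and 1033 in embryos and 202 and 185 in aging adults, 3.27-fold higher (adjusted p 0.0124).

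Other name stems held in either direction. Of 11 abu genes, named for activation when the unfolded protein response is blocked, 7 held as higher in embryos. abu-14 had 1742, 2051 and 2982 in embryos, 28.7, 16.8 and 18.3 in young adults and 25 and 30.4 in aging adults (adjusted p 5.37e-05). The water channel gene aqp-2 had 7009, 7209 and 7143 in embryos and 415 and 603 in aging adults, 8.09-fold higher in embryos (adjusted p 0.000111), while 4 of 10 aquaporin genes held as lower. Of 32 carboxylesterase domain genes (cest) 17 held as lower and 3 as higher, and of 10 acid phosphatase genes (pho) 6 held as lower and 0 as higher. pho-14 had 105, 116 and 136 in embryos, 1689, 1837 and 1702 in young adults and 5422 and 5593 in aging adults, 82.1-fold lower in embryos than in aging adults (adjusted p 1.60e-06). Of 12 galectin genes (lec) 5 held as lower, with lec-8 at 224, 267 and 374 in embryos, against 6747 and 7354 in aging adults, 44-fold lower in embryos (adjusted p 2.55e-05).

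Chemoreceptor genes were mostly below noise in whole animals. Of 232 measured srh genes 8 exceeded the noise level on any of the 5 arrays, of 177 str genes 17 did and of 114 srw genes 3 did.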
